A study of Homo sapiens with 24 samples.

Results

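Primed regions are stretches of chromatin that carry monomethylated histone H3 lysine 4 (H3K4me1) without acetylated lysine 27 (H3K27ac). They were taken here as H3K4me1 broad regions of the empty-vector line at least 1000 bp wide that overlapped an H3K4me1 region of both other lines and shared no base with any of the 6 H3K27ac lists. Of 138273 H3K4me1 regions of that line, 52688 were wide enough, 51522 of these were called in all 3 lines, and 7380 met every criterion. The primed regions made up 14.0% of the wide regions. The members were thus chosen by the measured H3K4me1 and H3K27ac lists, and what those lists say about them is given as a description only. The H3K27me3, UTX and MLL4 lists took no part in the choice.

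All lists are ChIP-seq peaks of UMUC1, a human bladder cancer cell line in long use, with a pSIN-puro construct kept stably. WT cells carried wild-type UTX, HEAA cells carried UTX with H1146A and E1148A, both in the JmjC demethylase domain, and EV cells carried the vector without UTX. Cells were harvested 3 days after plating, and chromatin was cut with micrococcal nuclease for UTX and MLL4 and by sonication for the histone marks. Each line gave a single list for UTX, MLL4 and both histone methylations, while H3K27ac had 2 lists in each line, from libraries numbered 1 and 2. Except for H3K27ac, a difference between lines therefore has no replicate error and could not be tested, and the intervals below are 95% Wilson intervals that cover counting error only. How deeply each library was sequenced is unknown.

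H3K4me1 is laid down at enhancers by the methyltransferases MLL3 and MLL4, and an enhancer with this mark alone is usually called primed, since it is not yet, or no longer, active. Acetylation of H3K27 by p300 and CBP marks the active state. The same lysine can instead be trimethylated by Polycomb repressive complex 2 (H3K27me3), and an enhancer with H3K4me1 and H3K27me3 is usually called poised. The rule here took no account of H3K27me3, so members that carry it are still called primed. UTX, also called KDM6A, removes H3K27 methylation and is a subunit of the MLL3 and MLL4 complexes.

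The primed regions were narrow and weakly enriched compared with acetylated H3K4me1 regions. The 44142 regions that met the same width and sharing criteria but overlapped at least 1 H3K27ac list are called acetylated here, and 20181 of them overlapped all 6. Primed regions had a median width of 1284 bp (up to 5491 bp) and covered 10.4 Mb, against a median of 1870 bp (up to 24743 bp) and 102 Mb for acetylated regions. The median fold enrichment of H3K4me1 in EV, the authors' value per region, was 2.99 in primed and 3.46 in acetylated regions. Among the wide regions of EV ranked by fold, the median primed region stood at the 25.6th percentile, and 58 of the strongest 5269 were primed (1.10%, interval 0.853% to 1.42%). Widths ended at the limit set by the rule. Another 28057 regions were narrower than 1000 bp and met the other criteria.

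Within a primed region, the other lines covered most of the EV interval. The median share of its width inside H3K4me1 was 76.6% in WT and 82.3% in HEAA, against 89.4% and 91.9% for acetylated regions in WT and HEAA. The mark was fully retained across 15.2% of the primed regions in WT and 18.9% in HEAA. It covered under 25% of the width in 3.93% of them in WT and 2.41% in HEAA. The widest member lay on chromosome 2 of hg19, the build of all positions here, from 95978100 to 95983590 (5491 bp). It was 94.6% covered in WT and 93.8% in HEAA, and had no H3K27me3 in any line. The next, on chromosome 20 from 30429518 to 30434680 (5163 bp), had 968 bp of H3K27me3 in WT, 731 bp in HEAA and none in EV.

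The first question was whether these regions carry the repressive mark on the lysine that lacks acetylation. A minority did. H3K27me3 overlapped 866 of the 7380 primed regions in WT (11.7%, interval 11.0% to 12.5%), 1018 in HEAA (13.8%, 13.0% to 14.6%) and 1088 in EV (14.7%, 14.0% to 15.6%). Over all wide H3K4me1 regions of EV the same shares were 2.48% in WT, 2.91% in HEAA and 3.28% in EV. Acetylated regions had it in 0.750% in WT, 0.911% in HEAA and 1.19% in EV, so that the share was 15.6, 15.1 and 12.3 times as high in primed regions. With acetylated regions weighted to the widths of the primed ones, their shares were 0.632% in WT, 0.828% in HEAA and 1.40% in EV. Primed regions had the higher share on 22 of 23 chromosomes in WT, and on all 23 in HEAA and in EV.

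The share was lower the more lists called the region acetylated. In EV, H3K27me3 was at 14.7% of the regions with no H3K27ac list, 5.26% of the 3803 with 1 list, 2.97% with 2, 1.07% with 3, 1.05% with 4, 0.595% with 5 and 0.238% with all 6. In WT, the regions with 0, 1 and 6 lists had 11.7%, 3.42% and 0.213%. The step between none and 1 list, in points, was the widest in each line. The number of lists also went with width, since the median was 1419 bp with 1 list and 2369 bp with 6.

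**Figure D1:**
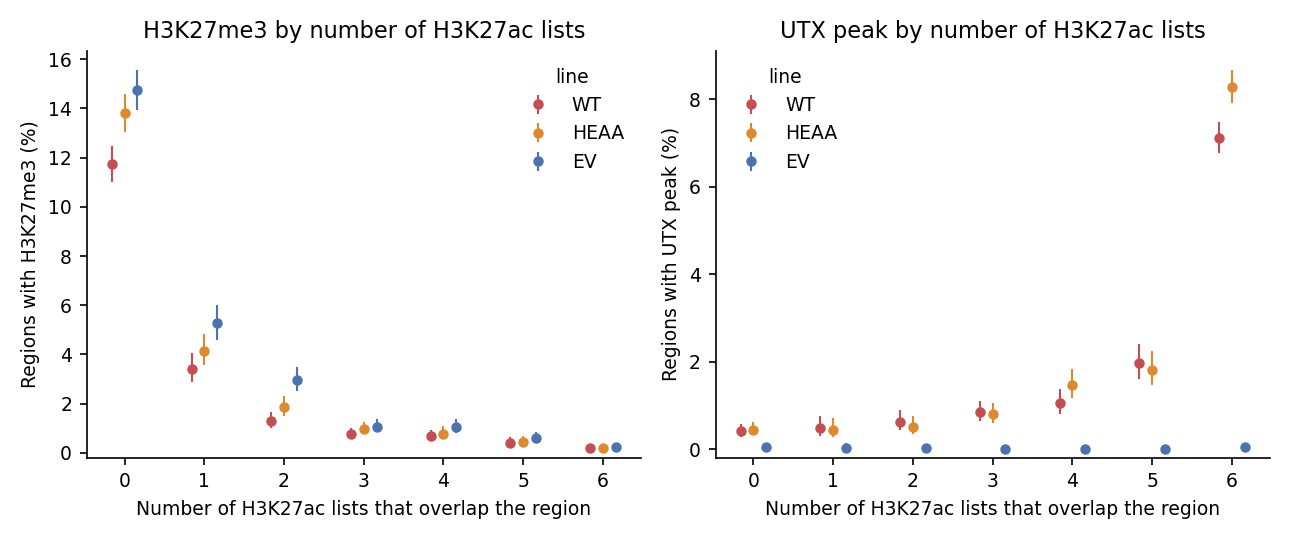
Share of H3K4me1 regions called in all 3 lines with H3K27me3 (left) and with a UTX peak (right), in %, by the number of H3K27ac lists that overlap the region (0 is the primed set, n = 7380). Points are WT, HEAA and EV and bars are 95% Wilson intervals; H3K27me3 is highest where no list calls acetylation, and UTX in WT and HEAA is highest where all 6 do.

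Where the mark met a primed region, it mostly covered part of it. The median marked region had 51.4% of its width inside H3K27me3 in WT, 49.9% in HEAA and 46.0% in EV. The mark spanned the whole width in 184 regions in WT, 227 in HEAA and 263 in EV. Over all primed bases it covered 7.05% in WT, 8.10% in HEAA and 8.37% in EV. Chromatin outside the H3K4me1 regions of all lines and outside H3K27ac regions was covered at 6.09%, 9.13% and 8.61% of its bases in WT, HEAA and EV. The primed set therefore stood far above acetylated H3K4me1 regions in this mark, but close to the rest of the genome, with ratios of 1.16, 0.886 and 0.972. That background counts assembly gaps as bases without the mark, which lowers it.

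The mark dipped at the regions themselves. At the midpoint, 5.84% of primed regions lay inside H3K27me3 in WT, 6.60% in HEAA and 6.99% in EV. At 3 kb to either side the shares were 8.76%, 11.5% and 12.6%, and at 10 kb 9.15%, 12.4% and 13.7%. H3K4me1 of EV covered 11.2% of the points at 1 kb from the midpoint, so most regions had ended there. Around acetylated regions H3K27me3 was lower at all these points and higher at 10 kb than at 5 kb, with 0.383% at the midpoint, 2.70% at 5 kb and 3.96% at 10 kb in EV.

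**Figure D2:**
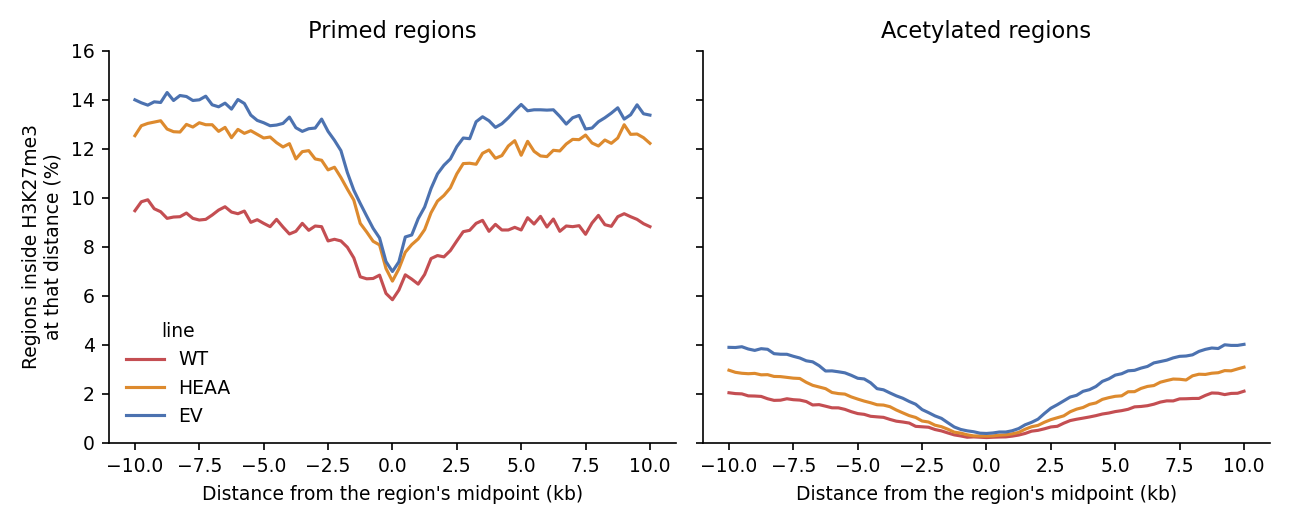
Share of regions (%) inside an H3K27me3 region at each distance (kb) from the region's midpoint, for primed (left, n = 7380) and acetylated (right, n = 44142) regions in WT, HEAA and EV. Around primed regions the lines have 5.84% (WT), 6.60% (HEAA) and 6.99% (EV) at the midpoint and lie further apart in the flanks, where WT is lowest.

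H3K27me3 at primed regions was then compared between the lines with a UTX construct and EV. With 1 list per line, this describes the lists and cannot show what wild-type or mutant UTX does to the mark. The share in WT minus that in EV was −3.01 points (interval −3.57 to −2.41, from the split of the regions marked in 1 of the 2). Of the primed regions, 174 had the mark in WT and not in EV and 396 in EV and not in WT. Over all wide regions, 0.659% were new in WT and 1.45% absent from WT. For HEAA minus EV it was −0.949 points (interval −1.58 to −0.309), with 255 regions marked in HEAA alone of the pair and 325 in EV alone. Without the EV replicate 1 library of H3K27ac in the rule, the HEAA difference was −0.499 points (interval −1.08 to 0.0925), and by midpoints it was −0.393 (−0.816 to 0.0410), so that both intervals included 0. For HEAA the corresponding shares of all wide regions were 0.884% and 1.25%. Both differences use the same EV list. The share in WT was below that of EV on 16 of 23 chromosomes, and the share in HEAA on 12, with 2 equal. With the H3K27ac lists of replicate 2 alone choosing the members, 18763 regions would qualify and the WT difference would be −2.01 points.

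The whole H3K27me3 lists also differ in length, which touches every such difference. The WT list covered 169 Mb against 239 Mb in EV, a ratio of 0.704, and the HEAA list 251 Mb, a ratio of 1.05. Over the bases of primed regions the ratio was 0.843 for WT and 0.967 for HEAA, and over those of acetylated regions 0.652 and 0.815. At the midpoint of primed regions WT had 0.835 times the share of EV, against 0.668 times at 10 kb. For HEAA these ratios were 0.944 and 0.904. The gap between WT and EV was therefore smaller inside the primed regions than around them. With all H3K27me3 lists limited to the same number of regions by q, the WT difference was −1.86 points (interval −2.43 to −1.25). That of HEAA was then −1.07 points (−1.66 to −0.462). These intervals overlap, but both use the same EV list, so the overlap does not compare WT with HEAA. With the full lists, WT minus HEAA was −2.06 points (interval −2.51 to −1.57), against −0.427 points over all wide regions. Of the primed regions, 114 were marked in WT and not HEAA and 266 in HEAA and not WT. WT was below HEAA on 20 of 23 chromosomes. WT minus HEAA was not computed with lists of equal length.

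H3K27me3 was present in all 3 lines at 632 primed regions (8.56%, against 1.64% of all wide regions). It was in none at 5983 (81.1%, against 98.3% of acetylated regions). The mark was in EV and in neither UTX line at 265 (3.59%; 1.07% of all wide regions) and in both UTX lines but not EV at 120 (1.63%; 0.419%). Of the 1088 primed regions marked in EV, 63.6% (60.7% to 66.4%) were also marked in WT and 70.1% (67.3% to 72.8%) in HEAA. Of the 527 acetylated regions marked in EV, 38.1% were marked in WT and 44.0% in HEAA. Regions marked in all lines were covered broadly, over a median 70.3% of their width in WT and 79.5% in EV. Those marked in EV alone were touched over a median 24.5% of it.

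Members marked in all lines were ranked by their H3K27me3 bases averaged over the 3 lines. The first lay on chromosome 7 from 100810318 to 100814734, with 3654 bp in WT, 3944 bp in HEAA and 2891 bp in EV. The second, on chromosome 2 from 175198395 to 175202038, had 3278 bp in WT, 3644 bp in HEAA and 3541 bp in EV, and its nearest acetylated region was 57.4 kb away. On chromosome 12, the region from 49370651 to 49375392 had 3259 bp in WT, 3371 bp in HEAA and 3376 bp in EV. A pair of members on chromosome 20, spanning 36543027 to 36546833 and 2731198 to 2734571, completed the 5. The first of the pair had 3807 bp in WT and in HEAA and 1970 bp in EV, and the other 2710 bp in WT and 3374 bp in HEAA and in EV. These 5 were marked over most of their width in each UTX line.

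Members marked in EV alone were led by chromosome 19 from 51944189 to 51946161, which was inside H3K27me3 over all of its 1973 bp. Chromosome 15 from 99139734 to 99141425 had 1467 bp and chromosome 1 from 202249965 to 202251409 had 1445 bp, its whole width. In the reverse class, chromosome 3 from 154798605 to 154802372 had 2589 bp in WT and 1482 bp in HEAA. Chromosome 15 from 48394475 to 48396510 had 1482 bp in WT and 2036 bp in HEAA. All these regions kept H3K4me1 in the 3 lines by the rule, but to unlike extents. The last was 22.1% covered by H3K4me1 in WT and 30.9% in HEAA, whereas the chromosome 19 region was 96.2% and 83.2% covered.

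**Figure D3:**
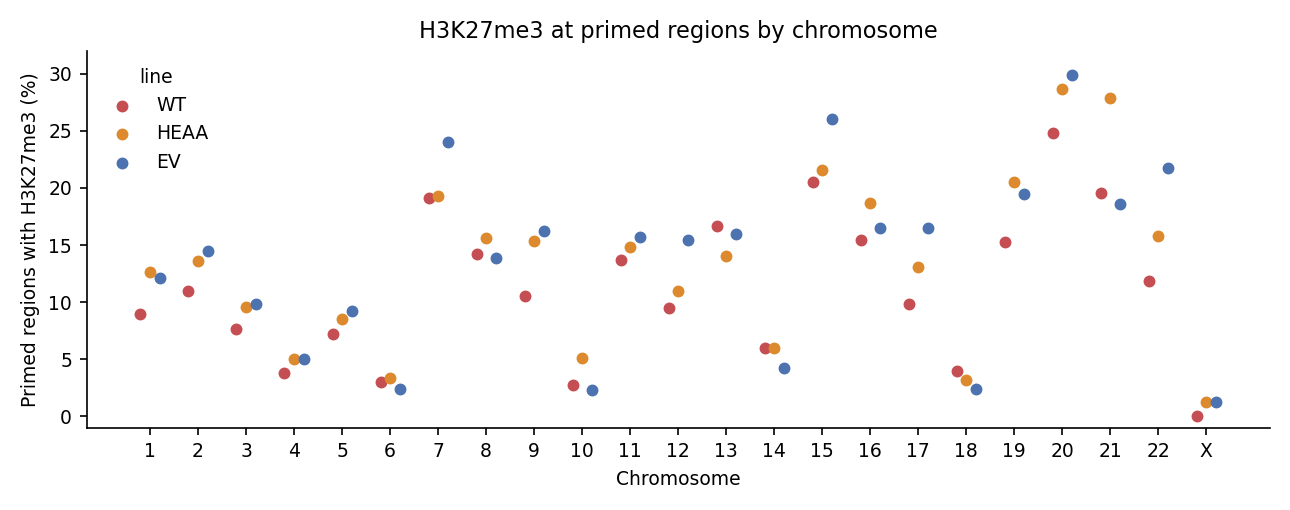
Share of primed regions (%) that overlap an H3K27me3 region, on each of chromosomes 1 to 22 and X, in WT, HEAA and EV. Shares run up to 29.9% in EV on chromosome 20, and WT lies below EV on 16 of the 23 chromosomes.

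Chromosomes differed widely. In EV the marked share of primed regions ran from 1.25% on chromosome X (80 primed regions) and 2.31% on chromosome 10 to 25.99% on chromosome 15 and 29.9% on chromosome 20. WT had 20.5% on chromosome 15 and 24.8% on chromosome 20. Primed regions themselves were spread more evenly, as 9.87% of the wide H3K4me1 regions on chromosome 10 and 17.7% on chromosome 13. The fullest bin of 1 Mb, on chromosome 20 from 61 to 62 Mb, held 21 primed regions, of which 11 had H3K27me3 in EV. Chromosome 15 held 3 of the 8 fullest bins, with 17 to 20 primed regions each. The median gap to the next primed region was 60.6 kb, and 60.2% of the members had another EV H3K4me1 region within 5 kb.

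The distance to acetylated chromatin was described next. The median primed region lay 8.50 kb from the nearest region of any H3K27ac list. The middle 50% of members lay between 2.82 and 23.1 kb, and the farthest 5% beyond 93.6 kb. Within 1 kb there were 778 members (10.5%), and beyond 100 kb 327 (4.43%). The member farthest away lay on chromosome 8 from 111906218 to 111907513, 1248 kb from acetylation. Next came 3 on chromosome 5, among them 104246113 to 104247544 at 829 kb and 101330788 to 101332312 at 758 kb, and 1 on chromosome 6 from 98395283 to 98396695 at 564 kb. None of these had H3K27me3, UTX or MLL4 in any line. The nearest acetylated region was called in all 6 lists for 33.7% of the members and in a single list for 25.1%, against 31.8% and 28.8% of all merged H3K27ac regions.

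Against single H3K27ac libraries, the median distance was 12.04 and 20.3 kb in WT (replicates 1 and 2), 10.1 and 23.5 kb in HEAA, and 12.3 and 15.9 kb in EV. The means were 16.2 ± 5.87 kb in WT, 16.8 ± 9.41 kb in HEAA and 14.1 ± 2.61 kb in EV (SD, n = 2 each). Across both replicate numbers the ranges of the lines overlapped, and in each line replicate 2 gave the longer distance. Within a number, the largest difference from EV was −2.11 kb in replicate 1 and 7.51 kb in replicate 2, both in HEAA. In replicate 1 both UTX lines were nearer than EV and in replicate 2 both were farther, as the lengths of those lists also go. They hold 63557 and 40470 regions in WT, 72700 and 37298 in HEAA, and 59180 and 45880 in EV. The labels do not say whether the numbered libraries came from separate cultures.

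Members farther from acetylation carried H3K27me3 more often. In EV the share was 6.17% under 1 kb (interval 4.68% to 8.09%), 8.66% at 1 to 5 kb, 14.6% at 5 to 20 kb, 23.8% at 20 to 100 kb (21.9% to 25.9%) and 23.2% beyond 100 kb (19.0% to 28.1%). In WT it was 4.37%, 6.19%, 11.2%, 19.7% and 23.5% over the same classes, and in HEAA 6.30%, 7.22%, 13.3%, 22.99% and 24.8%. Members at 20 kb or more exceeded those under 5 kb on 21 of 23 chromosomes in WT, 22 in HEAA and 20 in EV. The class medians of width lay between 1278 and 1291 bp and those of H3K4me1 fold between 2.91 and 3.03. The difference of WT from EV was −1.80, −2.48, −3.39, −4.18 and 0.306 points from the nearest class to the farthest. Beyond 100 kb, the mark was at 77 of the 327 members in WT (interval 19.3% to 28.4%) and at 76 in EV. No direction can be read from that difference.

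Bases outside H3K4me1 also had more H3K27me3 farther from acetylation, up to 100 kb, and over a wider range of values than primed bases. Each base was classed here by its own distance, so the bases of a member can fall in different classes. At 5 to 20 kb, 6.60% of primed bases in WT, 7.73% in HEAA and 8.31% in EV lay inside the mark, against 5.36%, 7.93% and 8.91% of the other bases. At 20 to 100 kb the primed bases had 11.6%, 13.3% and 13.4%, against 10.1%, 14.7% and 13.4% of the other bases. Nearer and farther, more of the primed bases were covered in each line. At 1 to 5 kb, primed bases had 3.25% in WT, 3.84% in HEAA and 4.16% in EV, and other bases 1.68%, 2.60% and 3.72%. Under 1 kb, primed bases had 3.08% in WT, 3.51% in HEAA and 3.48% in EV, and other bases 0.332%, 0.494% and 0.850%. Beyond 100 kb, primed bases had 14.1%, 14.3% and 13.1% and other bases 4.70%, 7.57% and 5.98%. Assembly gaps again count as bases without the mark.

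**Figure D4:**
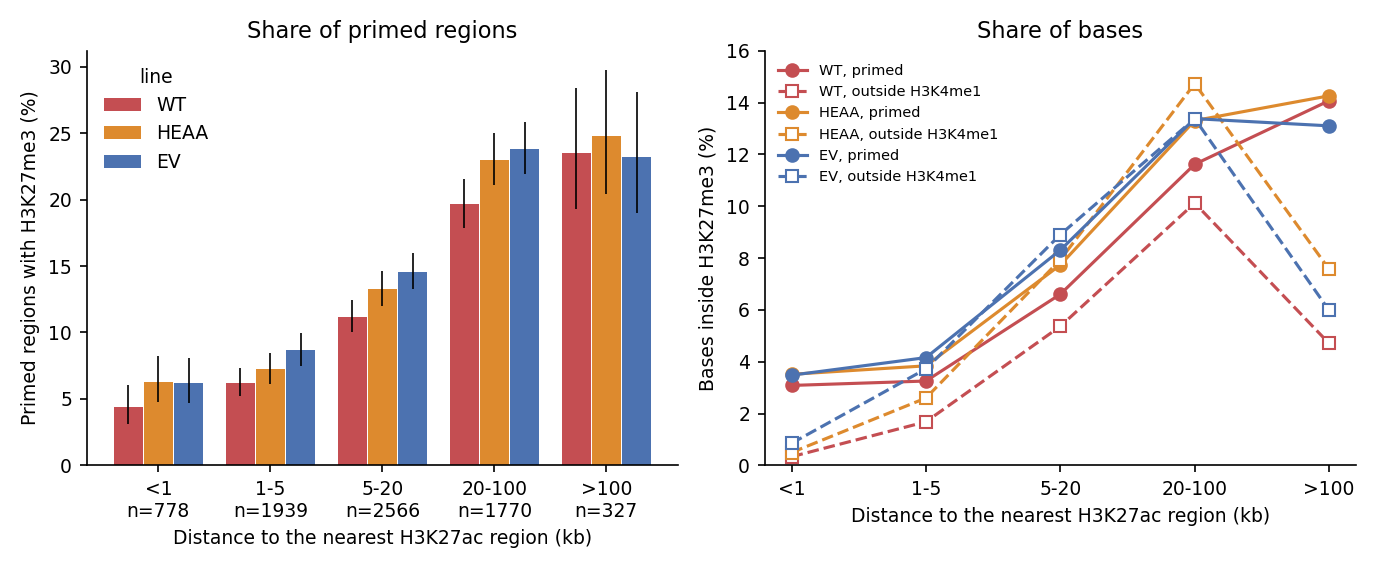
Left, share of primed regions (%) with H3K27me3 by distance (kb) to the nearest H3K27ac region, with 95% Wilson intervals, in WT, HEAA and EV. Right, share of bases (%) inside H3K27me3, with each base classed by its own distance. Primed regions are filled and solid, and bases outside all H3K4me1 regions are open and dashed. Both climb up to the class of 20 to 100 kb.

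UTX was rare at primed regions. A UTX peak lay in 30 of the 7380 in WT (0.407%, interval 0.285% to 0.580%), 33 in HEAA (0.447%, 0.319% to 0.627%) and 3 in EV (0.0407%), the line without a UTX construct. Over all wide H3K4me1 regions these shares were 3.24%, 3.7% and 0.0247%. Acetylated regions weighted to the same widths had 1.23% in WT and 1.38% in HEAA, and the ratio of primed to acetylated was 0.331 in WT and 0.325 in HEAA. In EV, where the list holds 31 peaks, it was 7.22 (0.0407% of primed and 0.00563% of acetylated regions). That ratio rests on 3 primed regions (interval of their share 0.0138% to 0.119%) and on the weighting. Without weighting, acetylated regions had UTX in 0.0227% in EV, and those acetylated in all 6 lists in 0.0396%. Regions with a single H3K27ac list had UTX in 0.473% in WT and 0.447% in HEAA. Those with 5 lists had 1.962% and 1.81%, and those with all 6 had 7.11% and 8.29%. Of the 2566 UTX peaks of WT, 127 (4.95%) met no H3K27ac region in any list, 116 of these met H3K4me1 in some line, and 30 lay in a primed region.

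The UTX peaks in primed regions stood at a median 73.4th percentile of their list by fold in WT and 52.9th in HEAA. Their median fold was 6.28 in WT, against 5.19 over the list, and 5.38 in HEAA, against 5.27. A UTX peak in both UTX lines was found at 24 members, or 0.325% of the primed regions, against 2.04% over all wide regions. A further 6 members (0.0813%) had one in WT and not HEAA, and 9 (0.122%) in HEAA and not WT. Of all 52688 wide regions, 1705 had UTX in WT and 1949 in HEAA, and 1075 had it in both. The 39 members with UTX in either line were wider, with a median of 1545 bp against 1283 bp for the other 7341. They lay a median 11.8 kb from acetylation, against 8.49 kb.

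At the head of the shared UTX members stood chromosome 17 from 72710838 to 72711882, where the UTX peak was enriched 9.61-fold in WT, 13.3-fold in HEAA and 5.10-fold in EV. Chromosome 7 from 51112793 to 51114405 had UTX at 9.60-fold (WT) and 9.62-fold (HEAA), without a peak in EV. That region also carried H3K27me3 over 1001 bp in WT, 1202 bp in HEAA and 1307 bp in EV. Chromosome 14 from 67777666 to 67779487 had 8.81-fold (WT) and 7.04-fold (HEAA), with no H3K27me3. Chromosome 2 from 69116285 to 69117595 had 7.41-fold (WT) and 7.74-fold (HEAA), and was inside H3K27me3 over 1311 bp in WT, 1048 bp in HEAA and 262 bp in EV. Chromosome 9 from 88155974 to 88157766 had 12.7-fold (WT) and 5.41-fold (HEAA), the widest gap of the 8. Chromosome 1 from 95273336 to 95274361 had 7.74-fold (WT) and 6.94-fold (HEAA). The chromosome 17 member was 1 of 3 with a UTX peak in EV. The second of these, chromosome 1 from 167596828 to 167598152, had 7.31-fold (WT), 8.80-fold (HEAA) and 6.19-fold (EV). The third, chromosome 16 from 23170972 to 23172311, had 8.63-fold (WT), 7.81-fold (HEAA) and 6.31-fold (EV).

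The primed regions with UTX carried H3K27me3 more often in the UTX lines than in EV, the opposite of the set as a whole. Of the 24 with UTX in both lines, 13 had the mark in WT (54.2%, interval 35.1% to 72.1%), 14 in HEAA (58.3%, 38.8% to 75.5%) and 7 in EV (29.2%, 14.9% to 49.2%). The mark was in WT and not EV at 7 of them and in EV and not WT at 1, and in HEAA these numbers were 7 and 0. It covered 11.2 kb of these regions in WT, 11.4 kb in HEAA and 5.999 kb in EV. Without the 3 members that had UTX in EV, the numbers were 11, 12 and 7 of 21. The intervals of the lines overlap, but they do not use the fact that the same 24 regions were counted in each line. There was 1 list per line, and the comparison was chosen after its values were seen. The 7341 members without UTX had the mark in 11.6%, 13.6% and 14.7% in WT, HEAA and EV. The peaks themselves mostly missed the mark. Of the 30 UTX peaks of WT, 2 shared a base with H3K27me3 of WT, and 3 of the 33 HEAA peaks with that of HEAA. In acetylated regions, 0 of the 1723 WT peaks and 0 of the 1986 HEAA peaks met H3K27me3 of their own line. H3K27me3 was not counted over all wide regions with UTX in both lines. Whether the difference from EV is particular to primed regions was therefore not tested.

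**Figure D5:**
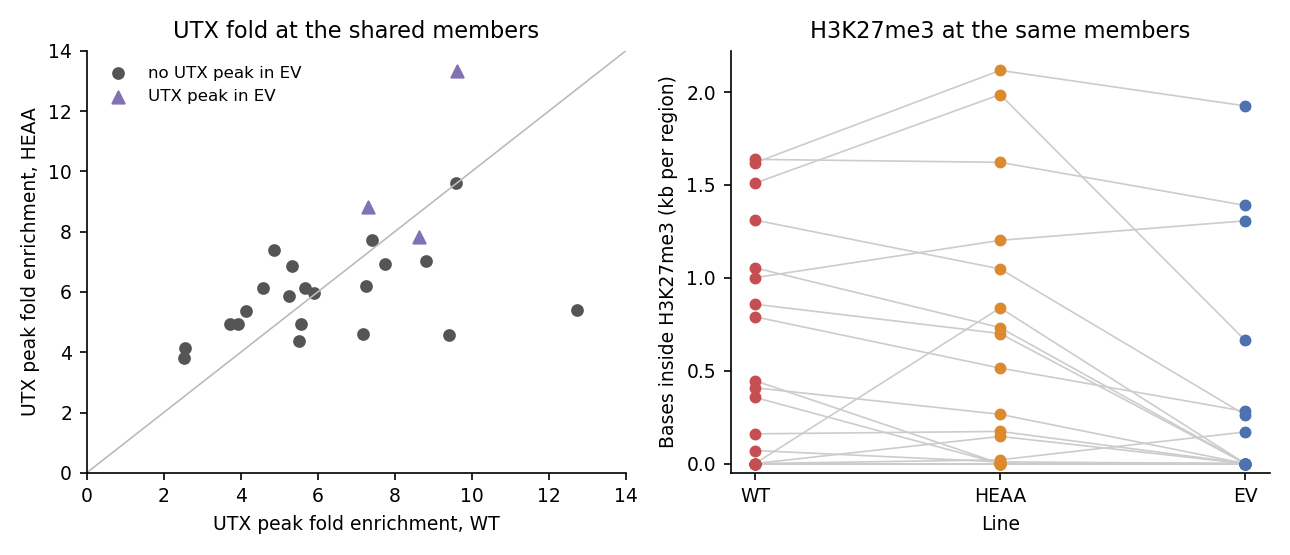
The 24 primed regions with a UTX peak in both WT and HEAA. Left, fold enrichment of the UTX peak in WT (x axis) and HEAA (y axis), with the line of equality and triangles for the 3 regions that also have a peak in EV; right, bases of each region inside H3K27me3 (kb) in WT, HEAA and EV, with a grey line per region.

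The UTX summits fell inside the H3K4me1 mark. The summit of 29 of the 30 WT peaks in primed regions lay within H3K4me1 of WT (96.7%, interval 83.3% to 99.4%), and 31 of the 33 HEAA summits within that of HEAA (93.9%, 80.4% to 98.3%). For UTX peaks in acetylated regions these shares were 59.0% in WT and 61.8% in HEAA. Within H3K4me1 of EV lay 100% of the WT and of the HEAA summits in primed regions. In acetylated regions 81.1% of the WT summits and 79.6% of the HEAA summits did. Both sets had to carry H3K4me1 in every line, so these shares are a description. The cause of the difference between the sets was not tested.

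MLL4 was almost absent. It had a peak in 2 primed regions in WT (0.0271%, interval 0.00743% to 0.0988%), 3 in HEAA (0.0407%, 0.0138% to 0.119%) and 1 in EV (0.0136%). Over all wide regions the shares were 0.958% in WT, 1.26% in HEAA and 0.0835% in EV. Acetylated regions weighted to the same widths had 0.285% in WT, 0.355% in HEAA and 0.0173% in EV. Regions with a single H3K27ac list were as poor in MLL4 as primed regions. They had it in 0.0263% in WT and in none in HEAA and EV (upper limit 0.101% in each). The MLL4 lists hold only 898 peaks in WT, 1125 in HEAA and 133 in EV. The 5 members concerned are named after their values were seen. Chromosome 17 from 66014873 to 66015927 had MLL4 at 7.59-fold (WT) and 11.3-fold (HEAA), and lay 0.264 kb from an acetylated region called in all 6 lists. Chromosome 6 held 26556202 to 26557317, with 7.87-fold in HEAA, and 27560451 to 27561450, with 5.67-fold in WT. The others were chromosome 9 from 78979305 to 78981487 in HEAA and chromosome 7 from 149403850 to 149405304 in EV. None of the 5 had a UTX peak or H3K27me3 in any line.

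The limits of the rule were checked on members just inside and regions just outside. H3K27me3 in EV was at 12.4% of the 1522 members 1000 to 1099 bp wide and at 11.9% of the 1818 otherwise matching regions of 900 to 999 bp. The narrowest members, of 1000 bp, lay on chromosome 10 from 27737887 to 27738886 and from 133785898 to 133786897 and on chromosome 12 from 31897308 to 31898307, with no H3K27me3 in any line. The widest regions left out, of 999 bp, lay on chromosome 1 from 205505543 to 205506541 and on chromosome 11 from 35388641 to 35389639 and from 66185535 to 66186533, of which the one at 35388641 had 382 bp of H3K27me3 in EV. At the other limit, 120 members had a gap under 100 bp to acetylation and 5% of them H3K27me3 in EV, against 7% of the 200 regions that shared 1 to 100 bp with it.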

How the data were processed

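Peak lists of 18 of the 24 samples were used; the 6 inputs were not used here. MACS2 and the builds hg19 and GRCh37 are named in the submitters' processing notes; for its version and the aligner, the sources used here give nothing. The names of the UTX and MLL4 lists say merged, without saying what. The fold enrichment of a region is a ratio deposited by the authors, as are the −log10 p and −log10 q. Depth is unknown, and a missing peak means only that the caller's threshold was not reached. Groups and replicate numbers came from the sample titles.

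Intervals were compared with custom code in Python 3.11.15, NumPy 2.4.6 and pandas 2.3.3, checked on simulated intervals, and figures were drawn with matplotlib 3.10.9. Overlap meant at least 1 shared bp. Coordinates follow the lists (hg19) with the first base as 1. Named members were the 5 widest, the 5 farthest from acetylation, 8 with UTX in WT and HEAA by rank of fold, 5 for each of 3 H3K27me3 patterns by bases, and 3 on each side of the width limit. Background bases were those between the first and last listed base of chromosomes 1 to 22 and X. Members, rules and alternatives were chosen with earlier results of these data known. Alternatives covered the width and q limits, the acetylation rule, joined regions, list lengths and each H3K27ac library. An hg19 genome or annotation was not used here, so members have no gene names or sequences.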

Additional observations from a re-analysis of the deposited data

Results flagged for a closer look

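The median distance from a primed region to the nearest H3K27ac region moved in opposite directions in the numbered libraries. In replicate 1 it differed from EV by −0.216 kb in WT and by −2.11 kb in HEAA. In replicate 2 it was 4.39 kb longer in WT than in EV and 7.51 kb longer in HEAA than in EV. The difference between the replicate numbers was not tested.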

How the results depend on the processing

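Of 99 values under an alternative, 76 stayed within the counting interval of the value reported (counts of regions: within 1.5 times) and 23 moved. None of the differences in share changed sign, and the other values could not, since counts, shares and distances are never negative. The counting interval of MLL4 was wide, from 0.00743% to 0.0988%. With a minimum width of 2000 bp there were 641 primed regions, H3K27me3 in EV was 22.4 points above acetylated regions, UTX in WT was at 1.25%, MLL4 at 0 (up to 0.468%, by the limit of 3 counts that a count of 0 allows) and the median distance was 7.50 kb. With H3K4me1 limited to −log10 q of at least 2, MLL4 was at 0 (up to 0.0562%). With no H3K27ac region within 1 kb, the difference from acetylated regions was 14.5 points and the distance 10.4 kb. Joining EV regions under 1 kb apart gave −3.96 points for WT minus EV, 15.4 points against acetylated regions and 10.0 kb. Counting only the midpoint gave −1.15 points for WT minus EV and 6.61 against acetylated regions. H3K27me3 limited to −log10 q of at least 2 gave 9.59 points against acetylated regions, and comparison with regions acetylated in all 6 lists gave 14.5. H3K27me3 lists of equal length gave −1.86 points for WT minus EV and −1.07 for HEAA minus EV. HEAA minus EV had intervals that included 0 at 2000 bp (−1.25), by midpoint (−0.393), with H3K27me3 limited by q (−0.515) and without EV replicate 1 of H3K27ac (−0.499). The causes of these moves were not tested.

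Leaving out each H3K27ac library gave 7389 to 9140 primed regions, −3.14 to −2.51 points for WT minus EV, −1.27 to −0.499 for HEAA minus EV, 11.99 to 13.5 points against acetylated regions, 0.402% to 0.449% for UTX, 0.0219% to 0.0374% for MLL4, and 8.49 to 8.61 kb. The 2 settings with 1 replicate number were added after seeing the data. With the replicate 1 libraries alone there were 8086 members and no value moved. With replicate 2 alone there were 18763, with −2.01 points for WT minus EV, 6.81 against acetylated regions, UTX at 0.586%, MLL4 at 0.0906% and 11.7 kb. MLL4 peaks within 1 kb gave 0.0813%. No paired analysis was possible because H3K27ac alone has libraries with more than 1 number, and its lists chose the members, so distances are given within each number with no test. Depth is unknown and limits what a missing peak means.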
